A study of Mus musculus with 8 samples.

Results

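The histone deacetylase genes Hdac1 to Hdac9 and Hdac11 were described in the anterior cingulate part of the mouse medial prefrontal cortex, taken from both hemispheres, after fear learning. These 10 genes were taken by symbol from the 22609 gene rows of the deposited expression table. They were grouped into class I (Hdac1, Hdac2, Hdac3 and Hdac8), class IIa (Hdac4, Hdac5, Hdac7 and Hdac9), class IIb (Hdac6) and class IV (Hdac11). Hdac10 is not among them, and the family below means these 10 genes only. Total RNA of 4 B6.SJL mice that underwent contextual fear conditioning was set against that of 4 B6.SJL context controls, all aged 3 months and all sampled 1 h after the session. Conditioned mice were given 2 shocks to the feet (0.8 mA, 2 s, with 30 s between) after 3 min in the chamber and were taken out 15 s later, while the controls were handled in the same way without shocks, so both groups had met the chamber and neither was left in the home cage. The comparison asks how transcript levels change early in the encoding of a memory. As the groups differed in the shocks and no group was given shocks alone, an effect of the shocks cannot be told apart from one of memory.

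Histone deacetylases remove acetyl groups from lysines of histones and of other proteins, and on chromatin this is usually linked with lower transcription. Class I enzymes are mostly nuclear and work inside corepressor complexes, whereas class IIa enzymes have little activity of their own on acetyl-lysine, bind Mef2 transcription factors, and leave the nucleus when neuronal activity leads to their phosphorylation and binding by 14-3-3 proteins. In rodents, inhibitors of these enzymes are known to strengthen several forms of memory, including contextual fear memory. Much of this control acts on the proteins, which a transcript level does not show.

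All values below are gene read counts that the authors divided by a factor per sample, and they are called scaled counts. Recovered gene reads ranged from 2306717 to 3338920 in conditioned libraries and from 1992452 to 3565356 in control libraries (exact permutation p = 0.857, two-sided, 70 assignments). The tissue label was met by cortical excitatory neuron transcripts, whose 6 listed markers summed to 3947 to 5325 scaled counts in conditioned and 3506 to 5053 in control samples, and the choroid plexus list stayed at 6.9 to 39.8 in conditioned and 11.6 to 51.4 in control samples. All tested markers had lower conditioned means on the log2 scale for astrocytes (8 of 8), oligodendrocytes (8 of 8), oligodendrocyte precursors (5 of 5), microglia (7 of 7), endothelial cells (7 of 7), mural cells (4 of 4), meningeal fibroblasts (5 of 5) and choroid plexus (4 of 4), whereas 6 of 6 cortical excitatory neuron markers and 6 of 8 general neuron markers had higher ones, as did 2 of 5 striatal neuron markers, and 0 of these markers passed the test. Their part in the values of the deacetylases was not tested, and in bulk tissue fewer cells of a type cannot be told apart from less RNA per cell. The libraries also differed, for a reason not tested, in the levels of transcripts rich in G and C relative to those poor in them. This GC contrast is the median log2 deviation of transcripts with at least 55% GC minus that of transcripts with at most 45% GC. It was taken over genes with a mean log2(value + 1) above 5, 1920 of high and 2679 of low GC. It was 0.59, 0.72, -0.28 and -1.02 in conditioned replicates 1 to 4 and 0.29, 0.49, -0.57 and -0.22 in control replicates 1 to 4. In both groups it was above 0 in replicates 1 and 2 and below 0 in replicates 3 and 4. This division by replicate number is given by no label other than the numbers and was seen in the data.

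Sequences upstream of 3 members are shown, the class IIa genes Hdac4 and Hdac5, with 3 and 4 of their 4 highest values in libraries with a GC contrast above 0, and the class I gene Hdac2, with its 4 highest values in those with a contrast below 0. Hdac7 and Hdac11 had their 4 highest values in the same libraries as Hdac5, and their upstream windows are not shown. The 250 bases before the RefSeq start (build GRCm38.p6, 5′ to 3′ on the gene's strand) are at chr1:92180342-92180591 on the minus strand for Hdac4, chr11:102230173-102230422 on the minus strand for Hdac5 and chr10:36974294-36974543 on the plus strand for Hdac2. Capitals mark the core of the cAMP response element, TGACG on either strand, and the MEF2 motif.
Hdac4: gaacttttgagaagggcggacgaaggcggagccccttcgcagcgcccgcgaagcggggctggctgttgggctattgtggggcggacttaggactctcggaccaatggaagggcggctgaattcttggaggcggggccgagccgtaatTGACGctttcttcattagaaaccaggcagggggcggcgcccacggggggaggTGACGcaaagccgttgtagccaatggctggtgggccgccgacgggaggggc
Hdac5: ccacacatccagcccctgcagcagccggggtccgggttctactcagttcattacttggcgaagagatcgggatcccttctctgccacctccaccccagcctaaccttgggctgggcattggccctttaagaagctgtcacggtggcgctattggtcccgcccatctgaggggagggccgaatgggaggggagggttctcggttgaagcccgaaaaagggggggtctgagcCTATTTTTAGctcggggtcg
Hdac2: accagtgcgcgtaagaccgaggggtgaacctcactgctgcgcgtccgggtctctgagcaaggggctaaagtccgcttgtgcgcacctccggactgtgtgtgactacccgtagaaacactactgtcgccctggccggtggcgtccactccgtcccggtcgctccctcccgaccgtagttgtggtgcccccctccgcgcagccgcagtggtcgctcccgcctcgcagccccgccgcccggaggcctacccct
The Hdac4 window held TGACG at 103 and 51 bases before the start, and 17.7% of the 32817 windows of this length in the RefSeq table held it on at least 1 strand. The Hdac11 window, of whose 250 bases 150 lie in annotated exons, also held it 1 time, and 0 of the 4 Hdac7 windows did. The Hdac5 window held the MEF2 motif, the binding sequence of the factors that class IIa enzymes bind, at 20 bases before the start, against 2.92% of all windows. No other window examined held the MEF2 motif, those of the class IIa genes Hdac4, Hdac7 and Hdac9 included. Neither motif was found in the windows of Hdac2, Hdac6, Hdac7, Hdac8 and Hdac9. The full element TGACGTCA, which contains TGACG, was in none of the 12 windows examined for 8 members and in 1.55% of all windows, and Hdac1 and Hdac3 were not examined. A match of letters is a description of the window only.

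The class IV gene Hdac11 and the class I genes Hdac2 and Hdac3 stood at the top of the family when corrected for length, while the class I genes Hdac8 and Hdac1 lay below Hdac5, Hdac9 and Hdac6. Per kilobase of the longest annotated transcript, the mean over all 8 samples was 212 ± 49.1 scaled counts for Hdac11, 128 ± 19.4 for Hdac2 and 85.7 ± 12.3 for Hdac3 (SD, n = 8). A middle set followed, with Hdac5 at 43.2 ± 19.4, Hdac9 at 39.9 ± 4.45 and Hdac6 at 32.8 ± 7.69 per kilobase. The lower levels per kilobase were 16.8 ± 4.45 for Hdac8, 8.08 ± 1.6 for Hdac1, 6.03 ± 2.26 for Hdac4 and 3.73 ± 2.11 for Hdac7. The level and rank of Hdac1 are uncertain, since 1444 of the 2038 bases of its transcript match an annotated pseudogene at 99.4% identity and reads of both copies may not have been counted. Hdac2 was above Hdac3, Hdac3 above Hdac5, Hdac8 above Hdac1, Hdac1 above Hdac4 and Hdac4 above Hdac7 in 8 of 8 samples, and Hdac11 above Hdac2 and Hdac6 above Hdac8 in 7 of 8. Between samples, the ranges of neighbours overlapped except for Hdac3 with Hdac5 and Hdac8 with Hdac1. Hdac5 was above Hdac9 in 4 of 8 samples and Hdac9 above Hdac6 in 6 of 8, so the order inside the middle set was not settled beyond the spread. With the union of exons as the length, Hdac6 (28.4 per kilobase) came before Hdac5 (26.6) and Hdac9 (21.6), and the other ranks were as before.

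**Figure D1:**
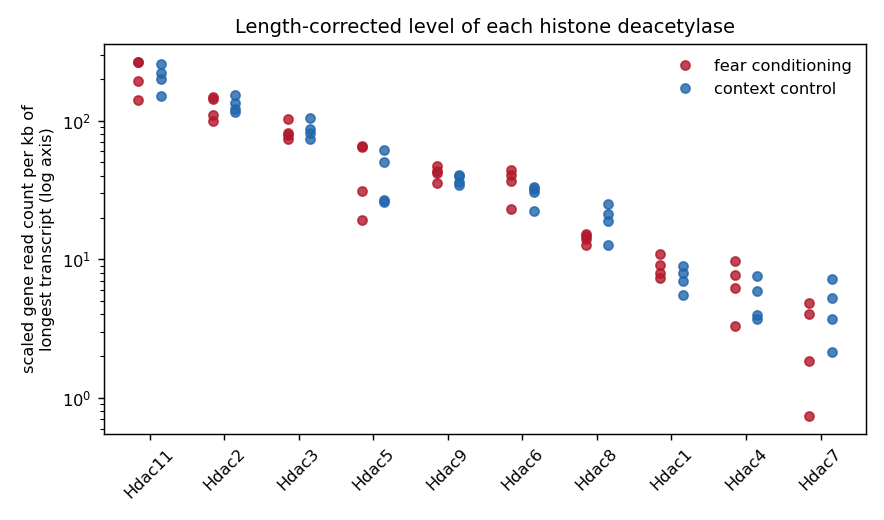
Scaled gene read count per kilobase of the longest transcript (log axis) for each of the 10 genes, in order of the mean over 8 samples, with one point per sample of fear conditioning (left of each gene) and context control (right). Hdac11 leads with a mean of 212, Hdac7 is last with 3.73, and the points of the groups overlap for every gene.

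No histone deacetylase passed the test after fear conditioning, and no gene of the table did. Of the 10 members, all of which met the filter of a mean value of at least 1, 6 had higher and 4 had lower means of log2(value + 1) in conditioned samples and 0 were called by limma at an adjusted p under 0.05. Over all 14704 genes tested, the calls were 0% and the share with a change above 0 was 51.8%. An unadjusted p under 0.05 was reached by 0 members and by 397 genes (2.7%) in limma, by 385 genes in edgeR and by 340 in DESeq2, both of which also called 0 genes. For none of the members did the conditioned samples lie all above or all below the controls, where 1.92% of all genes did. The median log2 change was 0.05 over the members and 0.0095 over all genes. Every member had an adjusted p of 0.9998 in limma, and what the data give for each is an interval of its change. The members and gene lists were chosen with earlier results of these data known.

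**Figure D2:**
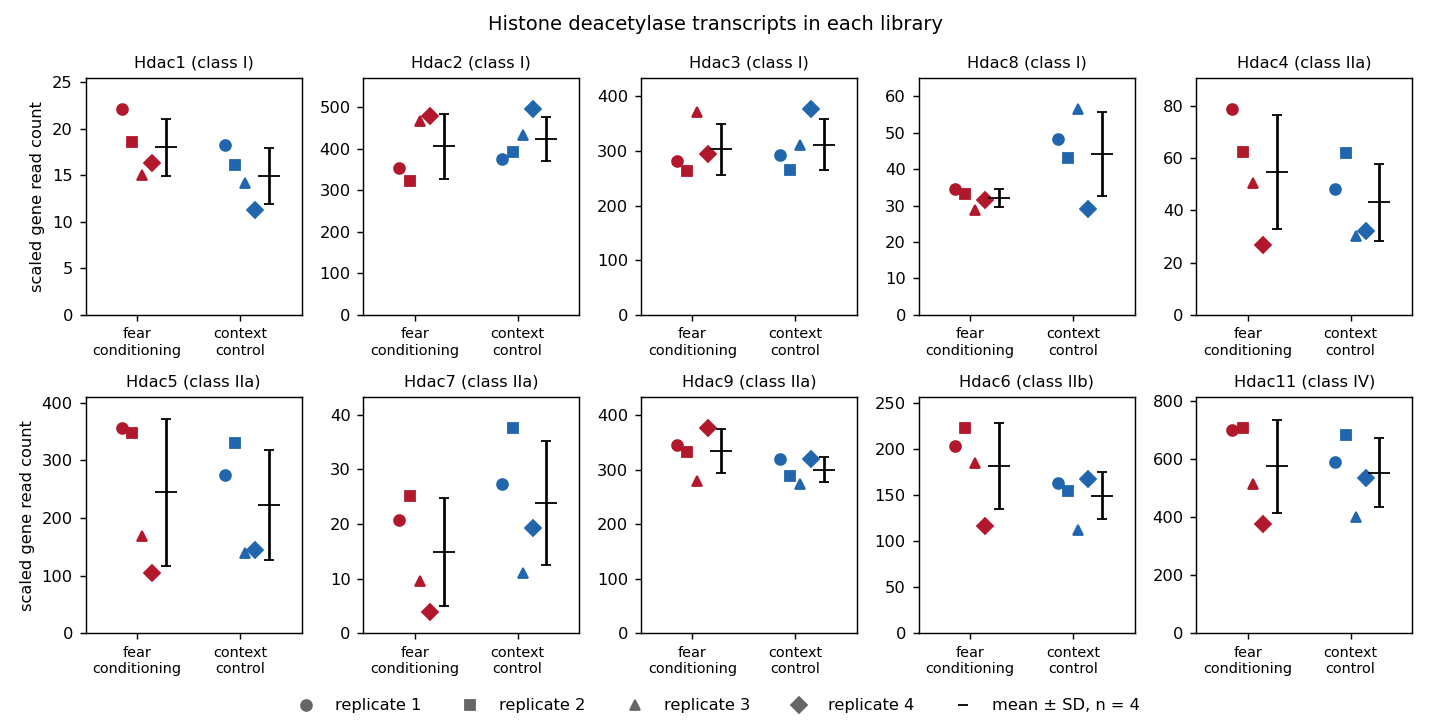
Scaled gene read count of each histone deacetylase in the 4 fear conditioning and 4 context control samples, with the symbol of a point giving the replicate number and the bar the mean ± SD (n = 4). The groups overlap in all 10 panels, and Hdac5 lies between 105 and 356 within the conditioned samples alone.

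Among class I genes, Hdac2 had the highest counts, though those of Hdac1 are uncertain for the reason given with that gene. Hdac2, a catalytic subunit of the Sin3, NuRD and CoREST complexes that is known to restrain memory formation in mice, read 355, 322, 467 and 480 scaled counts in conditioned replicates 1 to 4, against 376, 394, 434 and 496 in control replicates 1 to 4. Its highest values came from replicates 3 and 4 of both groups. The log2 change was -0.08 ± 0.17 (SE, n = 4 against 4; 95% confidence interval -0.45 to 0.29, limma). Without conditioned replicate 2 it was 0.03, so its direction rests on single libraries.

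Hdac3, the catalytic subunit of the NCoR complex and also known as a brake on long-term memory in mice, read 282, 264, 372 and 295 scaled counts in conditioned samples, against 293, 266, 312 and 377 in controls. Conditioned replicate 3 and control replicate 4 were the high samples. Its log2 change was -0.04 ± 0.17 (SE; 95% confidence interval -0.41 to 0.32, limma), and it was 0.02 without conditioned replicate 2 and 0.05 without control replicate 4.

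Hdac1, the close paralogue of Hdac2 in the same complexes, was counted at only 22.1, 18.6, 15.0 and 16.3 scaled counts in conditioned samples and at 18.3, 16.1, 14.1 and 11.3 in controls. These values rest on 11 to 17 recovered reads per conditioned library and 7 to 22 per control library, and the 7 reads of control replicate 4 have an exact Poisson 95% interval of 2.81 to 14.4 reads, which covers counting error only. The mouse genome carries an annotated pseudogene of Hdac1, and the longest Hdac1 transcript, 2038 bases long, matched it at 99.4% identity over 1444 bases. Its level is therefore uncertain, since the counting may have left out or divided reads that match both copies, which was not tested. The fitted log2 change was 0.26 ± 0.34 (SE; 95% confidence interval -0.47 to 0.99, limma), and it was 0.16 without conditioned replicate 1 and 0.14 without control replicate 4.

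Hdac8, an X-linked class I enzyme that deacetylates the cohesin subunit Smc3, had the smallest unadjusted p of the family in the main fit. This p was 0.167 by limma, against 0.172 for Hdac7. With the GC correction given below, Hdac7 had the smaller one (0.030 against 0.144 by limma), and neither gene was called. Hdac8 read 34.5, 33.2, 28.7 and 31.7 scaled counts in conditioned samples, against 48.2, 43.0, 56.5 and 29.0 in controls. The conditioned samples lay close together, with a coefficient of variation of 7.81% where counting error alone would give 19.6%. A spread below counting error does not show how alike the mice were. In controls these values were 26.1% and 15.6%. Of the 4 controls, 3 stood above all conditioned samples. The difference was -0.42 ± 0.28 on the log2 scale (SE; 95% confidence interval -1.03 to 0.20, adjusted p = 0.9998 by limma), from 21 to 33 reads per conditioned and 18 to 58 per control library. The sum of the 8 oligodendrocyte markers was 4006, 2644, 4169 and 3938 scaled counts in conditioned and 4372, 4486, 8597 and 2321 in control replicates 1 to 4. It was highest in control replicate 3, the highest for Hdac8, and lowest in control replicate 4, the lowest control for Hdac8. Among conditioned samples it was highest in replicate 3, the lowest for Hdac8. Control replicate 3 was also highest for astrocyte markers (20699), but control replicate 4 came next (19892). It was highest too for oligodendrocyte precursors (988), microglia (1465), endothelial cells (1061), mural cells (737), meningeal fibroblasts (519) and choroid plexus (51.4). The high value of control replicate 3 was thus not particular to oligodendrocyte markers. As given above, all 8 oligodendrocyte markers had lower conditioned means, as did the markers of the other glial and vascular lists. The part of these markers in the values of Hdac8 was not tested. The genes whose centred log2 values over the 8 samples lay nearest to those of Hdac8, among 6526 genes with a mean of at least 100, were Daam2, AI464131 and Tns3, with mean absolute differences of 0.09, 0.10 and 0.10 against a median of 0.38.

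In the deposited values, the class IIa transcripts Hdac4, Hdac5 and Hdac7 varied widely within each group, and Hdac9 did not. After the GC correction given below, the within-group SD (log2) was 0.23 for Hdac5 and 0.22 for Hdac9. Hdac5, an enzyme known to shuttle out of the nucleus in response to calcium signals, read 356, 348, 169 and 105 scaled counts in conditioned samples, against 274, 330, 139 and 145 in controls. In each group, replicates 1 and 2 lay well above replicates 3 and 4. The mean was 244 ± 127 in conditioned samples and 222 ± 95.3 in controls (SD, n = 4 each). These spreads are coefficients of variation of 51.9% and 42.9%, where counting error alone would give 7.29% and 7.05%. The within-group SD of Hdac5 on the log2 scale, 0.75, was larger than that of 97.4% of the 6532 genes with a mean of at least 100, whose median was 0.27. Its log2 change was 0.07 ± 0.39 (SE; 95% confidence interval -0.79 to 0.92, limma), and the value without 1 sample turned negative for 4 of the 8 samples, at -0.17, -0.16, -0.12 and -0.10 without conditioned replicates 1 and 2 and control replicates 3 and 4.

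Hdac4, which shares with Hdac5 the Mef2-binding region and is needed for memory in mouse forebrain neurons, read 78.7, 62.3, 50.6 and 26.9 scaled counts in conditioned samples, against 48.2, 61.8, 30.3 and 32.2 in controls. Conditioned replicate 1 was the highest and conditioned replicate 4 the lowest of all 8. The log2 change was 0.30 ± 0.36 (SE; 95% confidence interval -0.49 to 1.08, limma), and it ranged from 0.09 without conditioned replicate 1 to 0.59 without conditioned replicate 4. On the opposite strand a second annotated gene, Gm26720, shares 22.4% of the exon bases of Hdac4, and without stated strandedness their reads cannot be told apart.

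Hdac7, best known from endothelial cells and thymocytes, was near the floor, with 20.7, 25.2, 9.56 and 3.84 scaled counts in conditioned samples, against 27.4, 37.6, 11.1 and 19.3 in controls. Conditioned replicate 4 held 4 reads of it and control replicate 1 held 33. Its log2 change was the largest of the family in size, -0.80 ± 0.55 (SE; 95% confidence interval -2.01 to 0.40, adjusted p = 0.9998 by limma), but it was -0.33 without conditioned replicate 4. All 7 endothelial markers had lower conditioned means, as did those of the other glial and vascular lists. Sample by sample, the endothelial sum was 591, 773, 575 and 823 scaled counts in conditioned replicates 1 to 4. It was 889, 792, 1061 and 853 in control replicates 1 to 4. Within each group this sum was highest in conditioned replicate 4 and in control replicate 3, the samples with the lowest Hdac7 of their group. The part of these markers in the values of Hdac7 was not tested.

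Hdac9, whose gene also gives a short form without the deacetylase domain, had the family's smallest within-group log2 SD as deposited. It read 345, 333, 280 and 377 scaled counts in conditioned samples, against 319, 289, 273 and 320 in controls. Both groups had their lowest value in replicate 3. On the log2 scale the difference was 0.15 ± 0.15 (SE; 95% confidence interval -0.18 to 0.47, limma), the narrowest interval of the family, and counts per gene do not tell the short form from the long one. The difference was 0.086 without conditioned replicate 4 and 0.23 without conditioned replicate 3. The within-group SD of 0.15 was larger than that of only 11.2% of the genes with a mean of at least 100. After GC correction it was 0.22, above those of Hdac11 (0.09), Hdac2 (0.12) and Hdac3 (0.17).

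Hdac6 is a class IIb enzyme that acts mainly in the cytoplasm on alpha-tubulin and other proteins. It read 203, 223, 184 and 116 scaled counts in conditioned samples, against 163, 154, 112 and 167 in controls. Conditioned replicates 1 to 3 lay above every control, while conditioned replicate 4 lay below 3 of the 4. The log2 change was 0.26 ± 0.23 (SE; 95% confidence interval -0.24 to 0.75, limma). It was 0.13 without control replicate 3 and 0.46 without conditioned replicate 4 (adjusted p = 0.828 by limma, with an unadjusted p under 0.05), so it passed in neither.

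Hdac11, the only class IV enzyme, which is known to remove fatty acyl groups from lysine, read 699, 707, 515 and 376 scaled counts in conditioned samples, against 590.5, 684, 400 and 534 in controls. The order of the samples resembled that of Hdac5, with replicates 1 and 2 of both groups at the top and conditioned replicate 4 at the bottom. The fitted log2 change was 0.04 ± 0.22 (SE; 95% confidence interval -0.45 to 0.52, limma). It was negative without conditioned replicate 1 (-0.07) or 2 (-0.08) or control replicate 3 (-0.11), and also under 3 other settings, at -0.027 with quantile normalization, -0.018 with scaling by the recovered library totals and -0.0018 with GC correction. An opposite-strand gene, Gm44002, shares 15.4% of the exon bases of Hdac11.

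**Figure D3:**
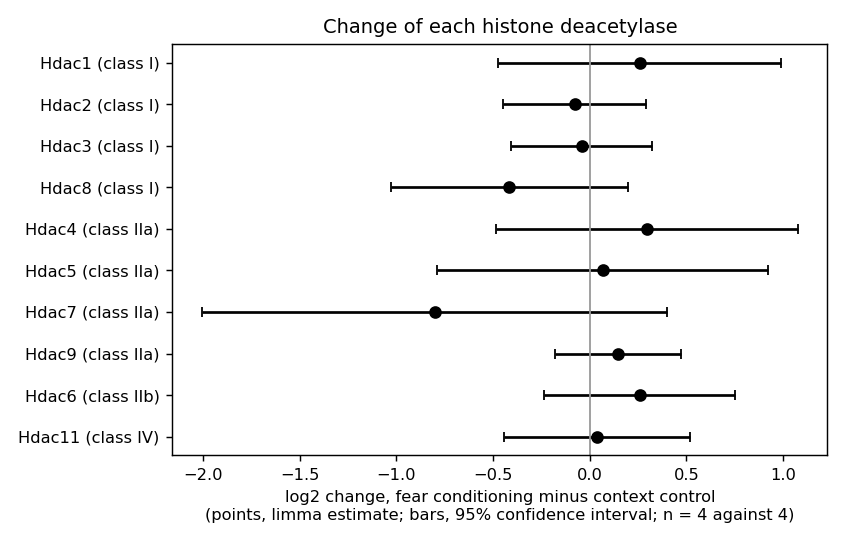
Log2 change (fear conditioning minus context control) of each histone deacetylase by limma, with 95% confidence intervals, for 4 against 4 samples. Every interval includes 0, and the widest is that of Hdac7, from -2.01 to 0.40.

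Summed by class, conditioned and control samples overlapped as well, and the class sums differed in which samples were high. Class I members together read 693, 638, 883 and 822 scaled counts in conditioned samples, against 736, 719, 816 and 913 in controls. For class IIa members the sums were 801, 768, 510 and 512 in conditioned samples, against 669, 719, 454 and 517 in controls. Within both groups, the class I sum was thus higher in replicates 3 and 4 and the class IIa sum in replicates 1 and 2. A few abundant genes set these sums and not every member followed them. In conditioned samples Hdac2 and Hdac3 averaged 406 and 303 of a class I mean of 759, and Hdac9 and Hdac5 334 and 244 of a class IIa mean of 648. Hdac1 was higher in replicates 1 and 2 of both groups, and Hdac9 was highest in replicate 4 of both. These sums are not corrected for length.

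Transcript GC content is given beside this division. The longest transcript of Hdac7 has 60.2% GC, that of Hdac5 59.8% and that of Hdac11 57.4%, and each of these 3 had its 4 highest values in replicates 1 and 2 of both groups, the libraries with a positive GC contrast. Hdac6 and Hdac4 have 52.6% and 52.5%. At the other end, Hdac2 has 41.9% and Hdac3 47.1%, and both had their 4 highest values in replicates 3 and 4 of both groups. Hdac8 (43.0%) and Hdac9 (45.03%) are also low in GC and did not divide the samples in this way. Hdac1 (49.95%) and Hdac4 were higher in replicates 1 and 2 than in replicates 3 and 4 within each group. Their 4 highest values over both groups included conditioned replicate 4 for Hdac1 and conditioned replicate 3 for Hdac4.

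**Figure D4:**
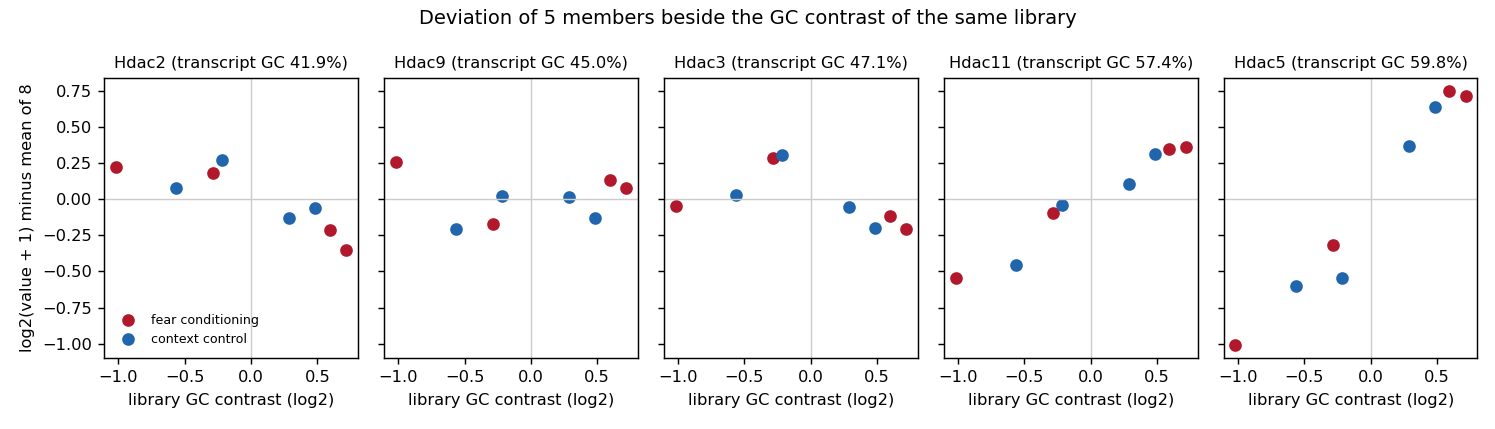
Log2(value + 1) of 5 members minus the mean of the 8 samples, against the GC contrast of the library (median log2 deviation of transcripts with at least 55% GC minus that of transcripts with at most 45%), with one point per sample and the panels in order of transcript GC content. Hdac5 and Hdac11 are high in libraries with a contrast above 0, Hdac2 in those with a contrast below 0, and points of fear conditioning and context control are mixed along both axes.

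Subtracting from each library a smooth curve on GC content narrowed the spread of the GC-rich members and left their changes uncalled. The within-group SD (log2) of Hdac5 was 0.23 after the correction and 0.75 as deposited. For Hdac11 it was 0.09 after and 0.38 before, for Hdac7 0.37 and 0.93, and for Hdac2 0.12 and 0.24 in the same order. It was wider after the correction for Hdac9 (0.22 and 0.15), Hdac8 (0.38 and 0.29) and Hdac1 (0.27 and 0.26). The corrected log2 change was 0.03 for Hdac5, -0.0018 for Hdac11 and -0.10 for Hdac2, and that of Hdac7 was -0.84 (adjusted p = 0.909 by limma, with an unadjusted p under 0.05). With the correction, 0 of 14530 genes passed and 782 had an unadjusted p under 0.05. The correction was chosen after the data had been seen.

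**Figure D5:**
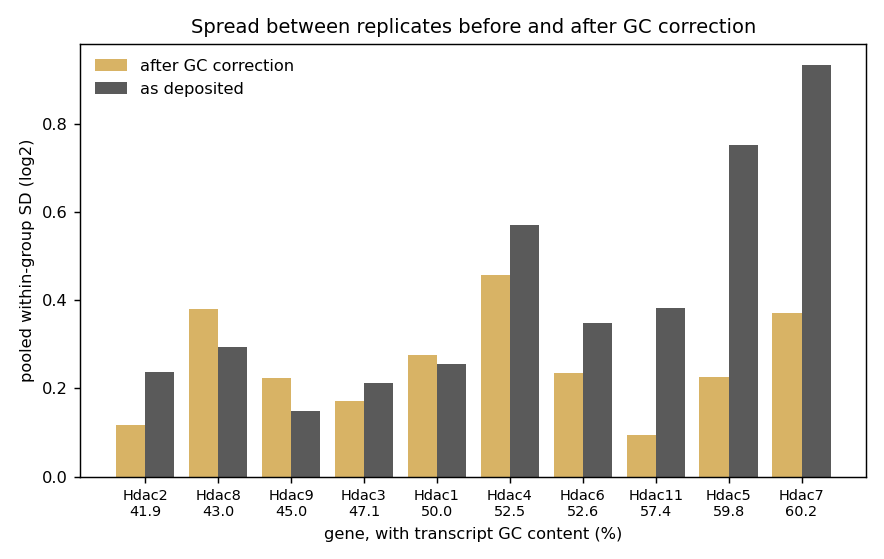
Pooled within-group SD of log2(value + 1) of each histone deacetylase after GC correction (left bar) and as deposited (right bar), with genes in order of transcript GC content. The bar of Hdac5 is 0.23 after correction and 0.75 as deposited, whereas that of Hdac9 is 0.22 and 0.15.

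Genes that work with or against the histone deacetylases were also without a call. Of 87 tested genes in 9 lists (of 88 listed, with Mef2b, a Mef2 factor, below the filter), 61 had higher and 26 lower conditioned means on the log2 scale, and 0 passed limma's threshold or an unadjusted p under 0.05. Over all 14704 genes tested, 51.8% had a change above 0, 2.7% had an unadjusted p under 0.05 in limma and 1.92% had groups without overlap. The counts of each list below are to be read beside these shares. The sirtuins, class III deacetylases that need NAD, had 2 of 7 higher, with a median log2 change of -0.02. Sirt5, a mitochondrial enzyme, averaged 28.3 ± 6.62 scaled counts in conditioned and 20.4 ± 7.57 in control samples (SD, n = 4 each). Sirt6, a chromatin enzyme, averaged 13.1 ± 5.29 in conditioned and 17.0 ± 12.5 in control samples.

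Corepressor complexes that hold Hdac1, Hdac2 or Hdac3 had no member past the test, and their median log2 changes lay between 0.02 and 0.16. The Sin3 list had 9 of 15 higher (median 0.02), with Suds3, a Sin3 subunit, at 371 ± 62.5 in conditioned and 424 ± 39.2 in control samples, and Arid4a, another subunit, at 207 ± 42.0 in conditioned and 176 ± 13.1 in control samples. NuRD genes were divided evenly, with 5 of 10 higher (median 0.03). Its paralogous subunits Gatad2a and Gatad2b differed in sign, with Gatad2a at 80.0 ± 31.4 in conditioned and 99.6 ± 22.8 in control samples, and Gatad2b at 98.0 ± 15.8 in conditioned and 84.7 ± 27.3 in control samples. In the CoREST list 9 of 9 were higher, with a median of 0.16 and a range of 0.01 to 0.41, among them Phf21a, a reader of unmethylated histone H3, at 148 ± 26.3 in conditioned and 128 ± 28.2 in control samples. Its HMG-box subunit Hmg20b stood at 19.3 ± 10.8 in conditioned and 12.9 ± 2.65 in control samples. NCoR complex genes had 4 of 5 higher (median 0.13), including Gps2 at 39.1 ± 16.0 in conditioned and 30.2 ± 6.8 in control samples. All conditioned and control samples of these named genes overlapped.

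Partners of class IIa enzymes and the opposing acetyltransferases gave the same picture of overlapping groups. Mef2 and 14-3-3 genes had 9 of 10 higher (median 0.07), with Mef2d at 269.5 ± 54.5 in conditioned and 229 ± 34.8 in control samples and Mef2a at 262 ± 48.2 in conditioned and 231 ± 33.6 in control samples. Kinases that can phosphorylate class IIa enzymes had 9 of 14 higher (median 0.08). In this list Camk1d, a calcium-calmodulin kinase, read 812, 826, 1014 and 1126 in conditioned samples against 712, 842, 791 and 801 in controls, and Prkd3, a protein kinase D gene, averaged 109 ± 49.3 in conditioned and 143 ± 49.95 in control samples. Histone acetyltransferase genes had 10 of 13 higher (median 0.10). Crebbp, which encodes CREB-binding protein, read 181, 121, 128 and 138 in conditioned samples, against 98.8, 146, 93.8 and 64.4 in controls. Its log2 change of 0.53 ± 0.25 (SE) had the smallest p of the 87 genes (adjusted p = 0.9998 by limma), and control replicate 2 lay inside the conditioned range. Myst4, the older symbol of Kat6b, averaged 221 ± 12.6 in conditioned and 178 ± 33.1 in control samples. The BET readers of acetyl-lysine had 4 of 4 higher (median 0.17), with Brd3 at 270 ± 33.3 in conditioned and 226 ± 57.9 in control samples and Brdt at 96.0 ± 25.2 in conditioned and 81.5 ± 9.69 in control samples.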

How the data were processed

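The deposited table holds 1 column per sample for 8 samples, and all were used. It is named FPKM, but 100% of the values above 0 in each column are whole multiples of the column's own step to within 0.01 of a read. The deposited values are therefore a signal of gene read counts divided by the authors' factor per sample, not corrected for length. TopHat and HTSeq are named without versions, and hg19, a human build, is named as the genome, per the submitters' processing notes. Strandedness, the annotation and how the factor was set were not given in the sources used here. Groups were taken from the sample titles, which the series design calls biological replicates. The members and lists were chosen with earlier results of these data known.

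Fear conditioning was compared with context control on log2(value + 1) for the 14704 genes whose mean value reached 1 in limma 3.58.1 under R 4.3.3 (eBayes with trend, two-sided, Benjamini-Hochberg adjustment, threshold 0.05). The scale understates changes of low genes. The median 95% confidence interval reached 0.62 to either side. edgeR 4.0.16 (quasi-likelihood) and DESeq2 1.42.0 were run on recovered reads. The limma step was tested on simulated data. All 10 members were named, and in each related list the 2 genes with the smallest p, of which 1 is not reported here. Lengths and GC content came from GENCODE vM21 (GRCm38), with a GC value for 98.8% of tested genes. The GC curve was a lowess (span 0.3).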

Additional observations from a re-analysis of the deposited data

How the results depend on the processing

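Under 19 alternatives for each member, among them other pseudocounts (0.1 and 10), filters (none, or a mean of at least 10), scalings, array weights, edgeR, DESeq2, GC correction and each sample left out, 0 of the 10 members passed the threshold. The number of genes past it was 0 throughout, except that leaving out single samples gave 0 to 1, with 1 gene without conditioned replicate 4. Hdac1, Hdac4, Hdac6, Hdac7, Hdac8 and Hdac9 kept their direction under all 19. Direction turned for Hdac2 (-0.16 to 0.026 with single samples left out), Hdac3 (-0.14 to 0.053), Hdac5 (-0.17 to 0.41) and Hdac11 (-0.11 to 0.22), and for Hdac11 also with quantile normalization (-0.027), scaling by the recovered library totals (-0.018) and GC correction (-0.0018). The cause was not tested. With the replicate number as a block (replicate block), 0 genes and 0 members passed and 594 genes had an unadjusted p under 0.05. The deviations of same-numbered samples correlated at 0.23, 0.25, 0.07 and 0.11, not all above 0.1, and conditioned replicate 4 correlated best with control replicate 3 (0.48), so the numbers were not taken to pair the samples. Depth limits Hdac1 and Hdac7 most, with as few as 7 and 4 reads.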
